A study of Mus musculus with 9 samples.

Results

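The 8 E2f genes E2f1 to E2f8, their dimerization partner gene Tfdp1 and the retinoblastoma gene Rb1 were followed in 9 RNA-sequencing libraries of mouse leukemia cells. They were taken from the expression table by gene name, which found all 10 among 55536 genes. All 9 libraries came from acute myeloid leukemia made by putting the fusion oncogene MLL-AF9, with GFP, into c-kit+ cells of C57BL/6J background by retrovirus. The donor cells were WT or IRF7-/-, the latter from mice in which exons 2 and 3 of Irf7 are replaced by a selection cassette. GFP+ leukemia cells were passed without irradiation into recipients of 6 to 8 weeks, and bone marrow was taken on day 18 and sorted by surface c-kit. There were 3 libraries each of c-kit- and c-kit+ cells of WT leukemia (AML-WT-c-kit-, here WT c-kit-, and, for the c-kit+ cells, AML-WT-c-kit+, here WT c-kit+) and of c-kit+ cells labelled as IRF7-/- leukemia (AML-IRF7-/--c-kit+). The genotype tags of the labels read as GFP overexpression in control and IRF7-/- cells, and the labels do not say whether the 3 libraries of a group came from separate mice, so p-values measure only the spread between these libraries.

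E2F proteins are transcription factors that time the entry of a cell into DNA synthesis. E2F1, E2F2 and E2F3 act mainly as activators, E2F4 and E2F5 mainly as repressors bound to pocket proteins, and E2F6, E2F7 and E2F8 as repressors that do not need a pocket protein. E2F1 to E2F6 bind DNA together with a DP protein such as the one encoded by Tfdp1, whereas E2F7 and E2F8 do not need one. RB, the product of Rb1, is the pocket protein that holds the activator E2Fs in check until cyclin-dependent kinases phosphorylate it.

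E2f2 differed most among the 10 genes. It was highest in WT c-kit-, lower in WT c-kit+ and lowest in the libraries labelled IRF7-/- c-kit+, with means of 65.5, 21.3 and 9.997 TPM, a level per length of transcript scaled to the total of its library. Tfdp1 was higher and Rb1 lower in both c-kit+ groups than in WT c-kit-. E2f6 was higher in the libraries labelled IRF7-/- c-kit+ than in either WT group. A gene is said here to have risen or fallen when its adjusted p was under 0.05 in limma, a linear model fitted across all genes on log2(TPM + 1). Of the 30 differences (10 genes in 3 comparisons), 18 passed, and 11 of these also passed under each of the 14 alternative settings run. Of all genes tested, 48.0% passed in the labelled libraries against WT c-kit+ and 41.6% in WT c-kit+ against WT c-kit-. The share was 59.4% in the labelled libraries against WT c-kit-. How many of all genes passed under every setting was not counted.

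Irf7 went against the label of a knockout. The WT c-kit+ libraries held 5.31, 3.91 and 3.36 TPM of it, whereas those labelled IRF7-/- c-kit+ held 12.8, 5.97 and 7.95 TPM, each above every WT c-kit+ library. The WT c-kit- libraries held more, at 23.5, 22.3 and 32.3 TPM, and the log2 fold change of the labelled libraries was −1.49 against WT c-kit- (SE 0.27, limma adjusted p = 0.00298) and 0.89 against WT c-kit+ (SE 0.27, limma adjusted p = 0.0321). The latter did not pass in 7 of 14 alternative settings. A level per gene sums all exons, so RNA from outside the replaced exons 2 and 3 cannot be told apart from the intact messenger. Hence these libraries are called labelled, and any direction given for them holds only as far as the label does. Kit, the gene for c-kit, followed the sort, at 0.52 to 3.03 TPM in WT c-kit-, 50.7 to 58.5 TPM in WT c-kit+ and 70.3 to 85.7 TPM in the labelled libraries. Genes of neutrophil maturation differed between the groups, and all 8 on the list (Ltf, Camp, Ngp, Lcn2, S100a8, S100a9, Mmp8 and Cd177) were detected. They are called neutrophil granule genes below for short, although S100a8 and S100a9 do not encode granule proteins. Their summed level was 6657 to 32134 TPM in WT c-kit-, 58193 to 113594 TPM in WT c-kit+ and 1842 to 2782 TPM in the labelled libraries. Since TPM are shares of a library, such abundant RNA lowers the level of all other genes, and a number of results are therefore also given with these 8 genes taken out and the libraries rescaled. Erythroid markers summed to 17.8 TPM at most. T cell markers summed to 1.89 TPM at most, and stromal and endothelial markers to 2.84 TPM at most. The B cell list summed to 27.7 to 38.6 TPM, nearly all from Cd79b. The megakaryocyte list summed to 0.73 to 2.28 TPM in WT c-kit- and 8.96 to 12.9 TPM in the c-kit+ libraries. Most of the latter came from Gp9, at 4.99 to 9.60 TPM, while Pf4 was at 1.10 TPM at most and Ppbp at 0.25 TPM at most. The list of genes typical of MLL-AF9 leukemia (Hoxa9, Hoxa10, Meis1, Kit and Mef2c) was at 407 to 507 TPM in all 9 libraries, of which Mef2c held 120.1 to 191 TPM in the WT libraries and 5.64 to 42.4 TPM in the labelled ones. Read depth is unknown because TPM keep none.

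**Figure D1:**
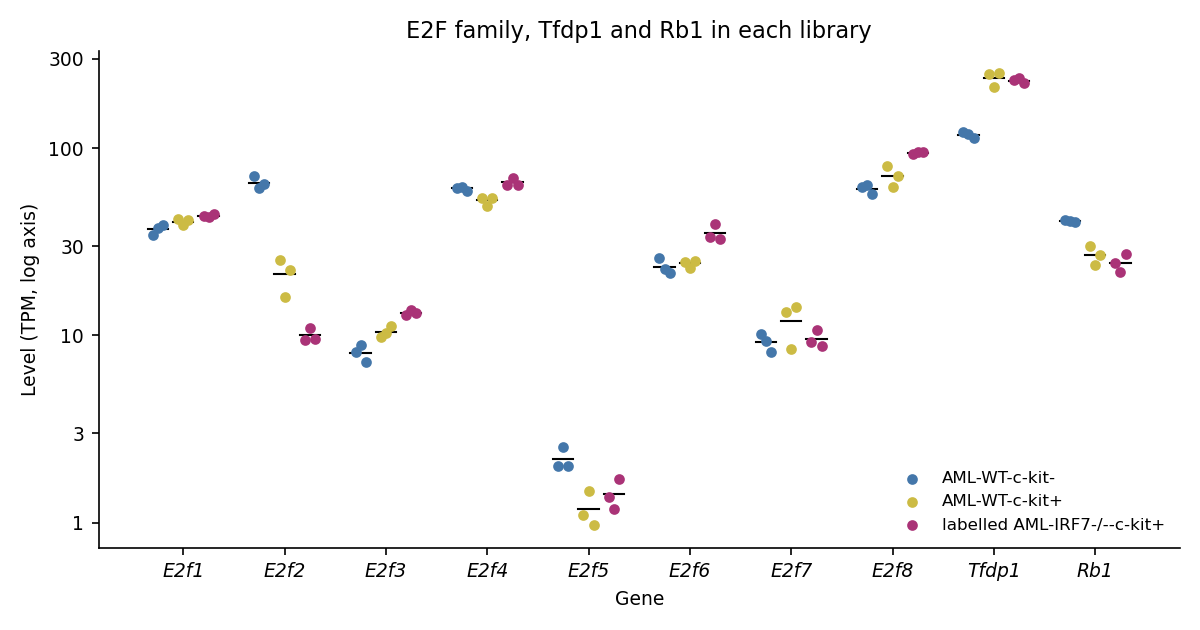
Level of each of the 10 genes in TPM on a log axis, with 1 point per library and a black line at the mean of the 3 libraries of a group. E2f2 steps down from 65.5 to 21.3 to 9.997 TPM, and Tfdp1 lies highest, at 118 TPM in WT c-kit-, 237 TPM in WT c-kit+ and 230 TPM in the labelled libraries.

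E2f2, an activator E2F, lies on mouse chromosome 4 at chr4:136172394-136196057 on the plus strand (GRCm38, GENCODE M21), with no gene overlapping it. The study also measured it by quantitative PCR, and the primers are shown because they mark the part of the messenger that assay reads. The first is in exon 3 and the second in exon 4 of the 7 exons of the long coding transcript, both in coding sequence, at chr4:136180436-136180455 and chr4:136181418-136181442. The product spans 299 bases of that transcript, and a short transcript of 426 bases matches the second primer but not the first.
E2f2 forward primer: gcgagtcggaggatggagtc
E2f2 reverse primer: cttgttggcattatcttcggtcagg

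E2F genes can themselves be under E2F control, so the promoters of the family were read for the letters of an E2F site. RefSeq promoter windows (GRCm38.p6, 250 bases before to 50 after a gene's RefSeq start) were given for 7 of the 10 genes and not for E2f4, E2f5 and Rb1. The RefSeq start can differ from the GENCODE start used for the coordinates here. The E2f1 window, chr2:154569377-154569676, lies wholly inside the GENCODE gene, so the bases before its GENCODE start were not searched. The E2f2 window with a match, chr4:136172024-136172323, ends before the GENCODE start. TTTCCCGC, TTTGGCGC, TTTCGCGC and TTTGCCGC were searched on both strands. A match stood in the windows of E2f2, E2f3, E2f7 and Tfdp1, 4 of 7 genes or 57.1%, and none stood in those of E2f1, E2f6 and E2f8. Among all 27025 genes with a window the share was 2.6%, and among the E2F target genes described below it was 14 of 28 or 50%. The 4 stretches follow in the direction of the gene, with the match in capitals, and GCGGGAAA and GCGCGAAA are TTTCCCGC and TTTCGCGC read from the other strand. A match of letters is not a bound site.
E2f2, chr4:136172294-136172323, plus strand: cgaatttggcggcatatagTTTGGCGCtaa
E2f3, chr13:29986064-29986100, minus strand: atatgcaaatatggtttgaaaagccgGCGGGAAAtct
E2f7, chr10:110745215-110745274, plus strand: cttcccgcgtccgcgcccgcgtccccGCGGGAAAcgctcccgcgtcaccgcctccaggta
Tfdp1, chr8:13338682-13338741, plus strand: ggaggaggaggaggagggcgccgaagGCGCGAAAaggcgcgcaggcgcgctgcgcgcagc

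In libraries 1, 2 and 3 of the WT c-kit- group E2f2 was at 71.1, 61.4 and 64.0 TPM. The level was 25.4, 16.1 and 22.4 TPM in WT c-kit+, against 9.47, 11.0 and 9.54 TPM in the labelled libraries. The 3 groups did not overlap. From WT c-kit- to WT c-kit+ E2f2 fell by 1.60 on the log2 scale (SE 0.16, limma adjusted p = 0.000381), and in these bulk samples fewer cells of a type and less RNA per cell cannot be told apart. From WT c-kit+ to the labelled libraries it fell by a further 1.00 (SE 0.17, limma adjusted p = 0.00339), short of the study's fold threshold of 1 only at the third decimal. Against WT c-kit- the labelled libraries were lower by a log2 fold change of −2.60 (SE 0.09, limma adjusted p = 5.63e-06). Each of these differences had an exact permutation p of 0.1 (two-sided), the lowest possible with 3 libraries against 3. The direction of E2f2 was opposite to that of the summed neutrophil granule genes from WT c-kit- to WT c-kit+. Of those 8 genes Mmp8 fell there like E2f2, from 85.1, 54.8 and 84.0 TPM to 4.02, 2.63 and 7.40 TPM. From WT c-kit+ to the labelled libraries the sum fell, as E2f2 did. With the 8 genes left out the fall of E2f2 from WT c-kit+ to the labelled libraries was 1.13 (limma adjusted p = 0.0035).

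E2f1, the most expressed activator in both c-kit+ groups (chr2:154559407-154569892, minus strand), moved less than E2f2. It was at 34.6, 37.5 and 39.0 TPM in WT c-kit-, at 41.9, 38.7 and 41.1 TPM in WT c-kit+, and at 43.2, 43.1 and 44.6 TPM in the labelled libraries. Only the WT groups overlapped. The log2 fold change from WT c-kit- to WT c-kit+ was 0.13 (SE 0.07, limma adjusted p = 0.200) and that from WT c-kit+ to the labelled libraries 0.10 (SE 0.06, limma adjusted p = 0.186), and neither passed. The former depends on the scaling, and passed at 0.29 with quantile normalization or equal library medians (limma adjusted p = 0.0206 and 0.0208). The latter was −0.03 with the neutrophil granule genes left out, so its sign is not settled. Across both steps E2f1 rose by 0.23 (SE 0.07, limma adjusted p = 0.0221), a call lost when WT c-kit- library 1 or labelled library 1 or 3 was left out, at adjusted p of up to 0.0804.

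E2f3, the least expressed activator in both WT groups (chr13:29906575-29986063, minus strand), went the opposite way to E2f2 and lay above it in the labelled libraries. It was at 8.11, 8.84 and 7.25 TPM in WT c-kit-, at 9.82, 10.3 and 11.3 TPM in WT c-kit+, and at 12.8, 13.7 and 13.1 TPM in the labelled libraries. The groups did not overlap, and each step was small. E2f3 rose by 0.34 on the log2 scale in WT c-kit+ against WT c-kit- (SE 0.11, limma adjusted p = 0.0485) and by 0.31 in the labelled libraries against WT c-kit+ (SE 0.09, limma adjusted p = 0.0244). The first call was lost without any 1 of the 6 libraries (adjusted p of up to 0.154), and the second in 8 of 14 settings, among them the one without the neutrophil granule genes (0.19, limma adjusted p = 0.119). From WT c-kit- to the labelled libraries the rise of 0.65 (SE 0.10, limma adjusted p = 0.00169) passed in all settings.

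Among the E2Fs that act mainly as repressors bound to pocket proteins, E2f4 (chr8:105297663-105305370, plus strand) was one of the most abundant family members. It was at 61.6, 61.9 and 59.3 TPM in WT c-kit-, at 54.4, 49.3 and 54.2 TPM in WT c-kit+, and at 63.9, 69.4 and 63.4 TPM in the labelled libraries. Each WT c-kit+ library lay below all others. E2f4 fell by 0.21 on the log2 scale from WT c-kit- to WT c-kit+ (SE 0.06, limma adjusted p = 0.0374) and rose by 0.31 from there to the labelled libraries (SE 0.07, limma adjusted p = 0.00892). WT c-kit+ is the group in which the neutrophil granule genes took most of the RNA, and with those genes left out neither call held (the rise was 0.18, limma adjusted p = 0.105). The fall was also lost without any 1 of the 6 libraries (adjusted p of up to 0.109), and was 0.03 with quantile normalization (limma adjusted p = 0.697). Against WT c-kit- the labelled libraries differed by 0.10 (SE 0.06, limma adjusted p = 0.173), which did not pass, but did at 0.18 with quantile normalization or equal medians (limma adjusted p = 0.0303 and 0.0256).

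E2f5, the other of the E2Fs that act mainly as repressors bound to pocket proteins (chr3:14578641-14606309, plus strand), was barely expressed. It was at 2.02, 2.54 and 2.00 TPM in WT c-kit-, at 1.10, 1.47 and 0.97 TPM in WT c-kit+, and at 1.38, 1.19 and 1.71 TPM in the labelled libraries. The c-kit+ groups overlapped each other and both lay below WT c-kit-. E2f5 fell by 0.55 on the log2 scale from WT c-kit- to WT c-kit+ (SE 0.16, limma adjusted p = 0.0304), a call lost when any WT c-kit- library or WT c-kit+ library 1 or 3 was left out, at adjusted p of up to 0.105, or with equal library medians (limma adjusted p = 0.0564). Its other log2 fold changes were 0.16 between the c-kit+ groups (SE 0.16, limma adjusted p = 0.457) and −0.39 from WT c-kit- to the labelled libraries (SE 0.15, limma adjusted p = 0.0571), the latter passing with the neutrophil granule genes left out (limma adjusted p = 0.0478).

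E2f6, which represses within a polycomb complex (chr12:16810963-16839742, plus strand), set the labelled libraries apart from both WT groups. It was at 25.9, 22.6 and 21.5 TPM in WT c-kit-, at 24.8, 23.0 and 25.01 TPM in WT c-kit+, and at 33.6, 39.5 and 32.6 TPM in the labelled libraries. The WT groups overlapped and every labelled library lay above them. E2f6 rose by 0.52 on the log2 scale in the labelled libraries against WT c-kit+ (SE 0.09, limma adjusted p = 0.00394) and by 0.57 against WT c-kit- (SE 0.10, limma adjusted p = 0.00331), and both calls passed in all settings. With the neutrophil granule genes left out the former was 0.39 (limma adjusted p = 0.0175). Between the WT groups the log2 fold change was 0.06 (SE 0.09, limma adjusted p = 0.658).

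E2f8, an atypical repressor that works without a DP partner (chr7:48866429-48881596, minus strand), was among the most abundant E2f genes in all groups. It was at 61.9, 63.5 and 57.0 TPM in WT c-kit-, at 80.2, 62.2 and 71.3 TPM in WT c-kit+, and at 92.9, 95.7 and 95.6 TPM in the labelled libraries. The labelled libraries lay above the other 6, which overlapped because of WT c-kit+ library 2. E2f8 rose in the labelled libraries by 0.41 on the log2 scale against WT c-kit+ (SE 0.09, limma adjusted p = 0.0106) and by 0.63 against WT c-kit- (SE 0.06, limma adjusted p = 0.000172). The former was 0.28 with the neutrophil granule genes left out, which did not pass (limma adjusted p = 0.0784), and the latter passed in all settings. The log2 fold change between the WT groups was 0.22 (SE 0.10, limma adjusted p = 0.130), and it passed with quantile normalization (0.40, limma adjusted p = 0.0174), with equal medians (0.38, limma adjusted p = 0.0263) and without WT c-kit+ library 2 (0.31).

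E2f7, the other atypical E2F (chr10:110745439-110787384, plus strand), showed no difference that passed. It was at 10.2, 9.37 and 8.13 TPM in WT c-kit-, at 13.4, 8.46 and 14.2 TPM in WT c-kit+, and at 9.26, 10.7 and 8.83 TPM in the labelled libraries. All groups overlapped, and WT c-kit+ library 2 stood below its 2 companions. The log2 fold change was 0.32 from WT c-kit- to WT c-kit+ (SE 0.20, limma adjusted p = 0.243) and −0.27 from there to the labelled libraries (SE 0.19, limma adjusted p = 0.284). Without WT c-kit+ library 2 these were 0.54 (limma adjusted p = 0.0226) and −0.48 (limma adjusted p = 0.0167), so this library decides both calls. Against WT c-kit- the labelled libraries differed by 0.05 (SE 0.12, limma adjusted p = 0.741). The ratio of E2f8 to E2f7 was 6.62 ± 0.487 in WT c-kit-, 6.12 ± 1.17 in WT c-kit+ and 9.93 ± 0.940 in the labelled libraries (SD, n = 3).

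Tfdp1 encodes DP1, a DP protein with which E2F1 to E2F6 bind DNA, and lies at chr8:13338751-13378448 on the plus strand. It was the highest of the 10 genes, at 122, 119.6 and 113 TPM in WT c-kit-, at 249, 212 and 251 TPM in WT c-kit+, and at 231, 236 and 222 TPM in the labelled libraries. The c-kit+ groups overlapped, and each of their libraries lay well above WT c-kit-. Tfdp1 rose by 1.00 on the log2 scale from WT c-kit- to WT c-kit+ (SE 0.08, limma adjusted p = 0.000144) and by 0.95 from WT c-kit- to the labelled libraries (SE 0.05, limma adjusted p = 2.13e-05), and both calls passed in all settings. The former is a 2.01-fold ratio of mean TPM. Between the c-kit+ groups the log2 fold change was −0.04 (SE 0.08, limma adjusted p = 0.662).

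Rb1, the pocket protein gene (chr14:73183673-73325822, minus strand), went down with surface c-kit where Tfdp1 went up. It was at 41.3, 40.8 and 40.3 TPM in WT c-kit-, at 29.9, 23.7 and 26.8 TPM in WT c-kit+, and at 24.5, 21.9 and 27.2 TPM in the labelled libraries. The c-kit+ groups overlapped and both lay below WT c-kit-. Rb1 fell by 0.59 on the log2 scale in WT c-kit+ (SE 0.09, limma adjusted p = 0.00260) and by 0.72 in the labelled libraries (SE 0.09, limma adjusted p = 0.000550) against WT c-kit-, and both calls passed in all settings. Between the c-kit+ groups it was −0.13 (SE 0.11, limma adjusted p = 0.398). The ratio of Tfdp1 to Rb1 was 2.89 ± 0.0826 in WT c-kit-, 8.88 ± 0.524 in WT c-kit+ and 9.47 ± 1.31 in the labelled libraries (SD, n = 3). Since it is taken within a library, rescaling a library by a constant factor does not change it, whereas quantile normalization can. Rb1 overlaps Rcbtb2 and Lpar6 on the other strand and Gm17233 and Mir687 on its own, and the library kit does not mark strand, so reads of the shared stretches cannot be told apart. The same holds for E2f3 with Gm11365, E2f5 with 1810022K09Rik, E2f7 with 1700020G17Rik and E2f8 with Gm2788.

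Counted by comparison, 4 of the 10 genes rose (E2f3, E2f4, E2f6 and E2f8), 1 fell (E2f2) and 5 did not pass in the labelled libraries against WT c-kit+. Of all 13238 genes tested there 48.0% passed, 31.9% higher and 16.1% lower, and 11.7% also reached the fold threshold, a log2 value of 1 in size, which none of the 10 genes did. The median log2 fold change was 0.13 over the 10 genes and 0.12 over all genes, and the 4 that rose had values of 0.31 to 0.52. With the neutrophil granule genes left out the median of all genes was −0.00, and the count was 1 higher (E2f6) and 1 lower (E2f2). Thus 20% of the 10 genes passed, beside 43.4% of all genes tested. That setting also moved the share of higher among all passing genes from 66.4% to 50.6%, and quantile normalization and equal library medians moved it to 55.1% and 56.4%.

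In WT c-kit+ against WT c-kit-, 2 of the 10 genes rose (E2f3 and Tfdp1), 4 fell (E2f2, E2f4, E2f5 and Rb1) and 4 did not pass. Of 13261 genes tested 41.6% passed, 14.0% higher and 27.6% lower, and 14.4% passed both thresholds, as did E2f2 alone among the 10. The median was 0.09 over the 10 genes and −0.08 over all genes. The split depends on the scaling: among all passing genes 33.7% were higher, against 54.0% with quantile normalization, 53.6% with equal medians and 46.4% without the neutrophil granule genes. Among the 10 genes, quantile normalization gave 4 higher and 3 lower, equal medians 4 and 2, and the setting without the neutrophil granule genes 2 and 3. The share of all genes passing was 42.49%, 42.57% and 40.95% in the same order. In the labelled libraries against WT c-kit-, which differ in both sort and label, 5 genes rose (E2f1, E2f3, E2f6, E2f8 and Tfdp1), 2 fell (E2f2 and Rb1) and 3 did not pass. Of 13510 genes tested 59.4% passed, 30.7% higher and 28.7% lower, and 20.3% passed both thresholds, again with E2f2 alone among the 10. The median was 0.17 over the 10 genes and 0.03 over all genes. With the neutrophil granule genes left out 5 of the 10 rose and 3 fell, while 59.35% of all genes tested passed. The 3 comparisons share libraries pairwise, so their counts are not independent of each other.

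**Figure D2:**
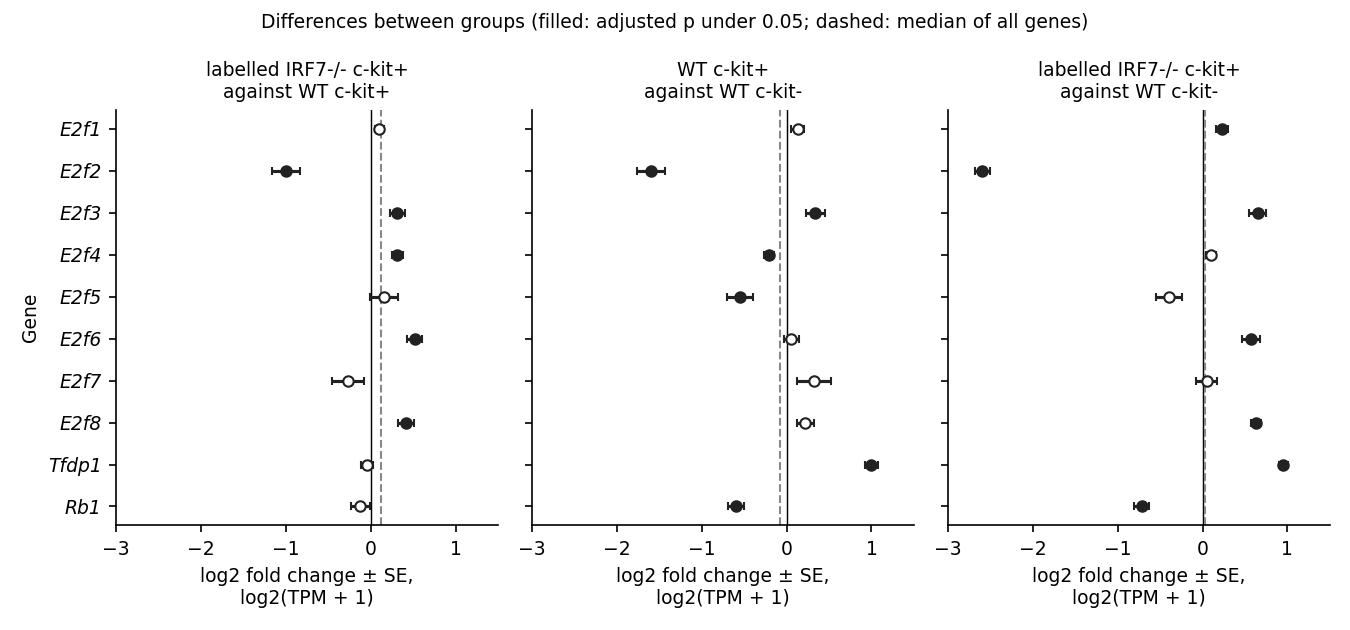
Log2 fold change of each gene on the log2(TPM + 1) scale with its standard error, in 1 panel per comparison of 3 against 3 libraries. Filled points had a limma adjusted p under 0.05 and the dashed line is the median of all genes tested, at 0.12, −0.08 and 0.03 from left to right. E2f2 lies lowest in each panel.

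The make-up of the E2F messenger pool shifted from E2f2 towards E2f8. E2f2 made up 24.5% ± 1.46 of the summed TPM of the 8 E2f genes in WT c-kit-, 9.03% ± 1.23 in WT c-kit+ and 3.65% ± 0.183 in the labelled libraries (SD, n = 3). E2f8 made up 22.8% ± 0.868, 30.4% ± 1.32 and 34.7% ± 0.920 in the same order, and the groups did not overlap for either gene. E2f4 stayed within 21.7% to 24.4% in all 9 libraries. E2f6 made up 8.72% ± 0.591, 10.4% ± 0.539 and 12.9% ± 0.922, and E2f1 13.9% ± 1.28, 17.4% ± 0.934 and 16.0% ± 0.724. The remaining genes were small parts of the pool, with group means of 3.02% to 4.83% for E2f3, 3.45% to 5.09% for E2f7 and 0.515% to 0.819% for E2f5. These shares do not change when a library is rescaled by a constant factor, but a fall in 1 gene raises the share of all others. The summed level itself was 267 ± 8.62 TPM in WT c-kit-, 233.6 ± 21.6 TPM in WT c-kit+ and 273 ± 9.49 TPM in the labelled libraries.

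**Figure D3:**
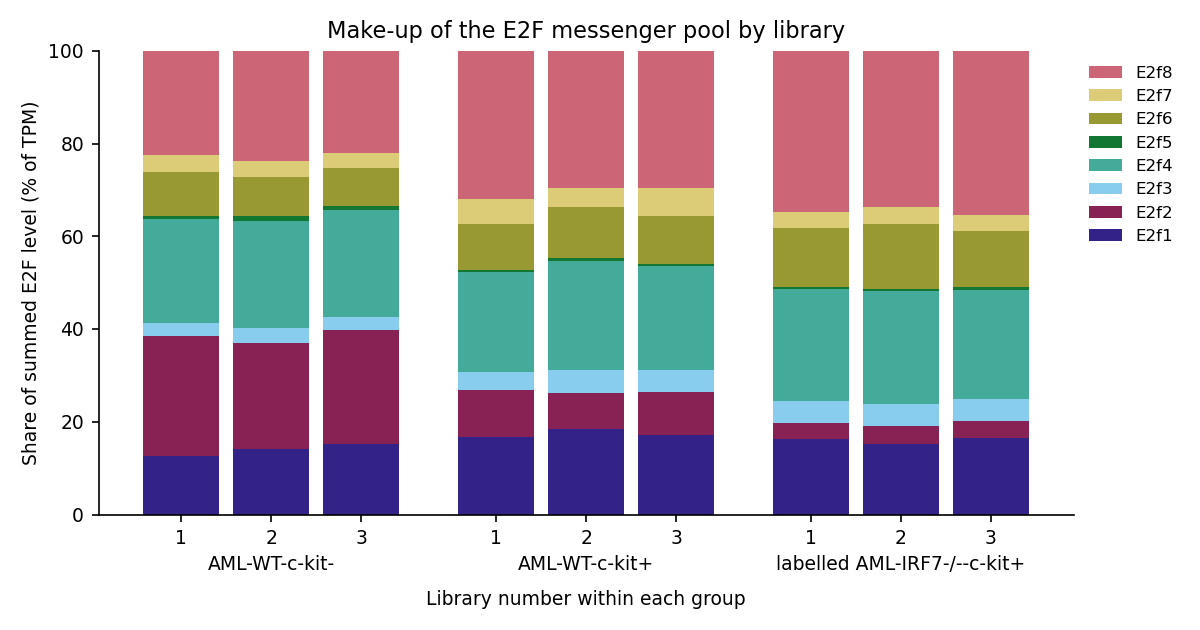
Share of each E2f gene in the summed TPM of the 8 E2f genes, in percent, with 1 stacked bar per library and the 3 libraries of a group side by side. The E2f2 segment shrinks from a mean of 24.5% to 9.03% and 3.65%, and the E2f8 segment grows from 22.8% to 30.4% and 34.7%.

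Within the activators, the ratio of E2f2 to E2f1 was 2.06, 1.64 and 1.64 in WT c-kit-, so E2f2 was the more abundant messenger there. It was 0.606, 0.416 and 0.544 in WT c-kit+ and 0.219, 0.255 and 0.214 in the labelled libraries. The order of the pair was thus turned in both c-kit+ groups. The ratio of Tfdp1 to the sum of its binding partners E2f1 to E2f6 was 0.599 ± 0.0148 in WT c-kit-, 1.58 ± 0.0437 in WT c-kit+ and 1.36 ± 0.0389 in the labelled libraries (SD, n = 3), without overlap. By rank among the genes detected in a group, E2f2 stood at percentile 81.2 in WT c-kit-, 55.0 in WT c-kit+ and 35.0 in the labelled libraries, and Tfdp1 at 90.2, 96.0 and 95.6.

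The genes whose pattern over the 9 libraries was most like that of the 3 most variable members were found among 10284 genes with a mean of at least 5 TPM, by the root mean square difference of centred log2(TPM + 1). Nearest to E2f2 were Bcl6, a transcriptional repressor of lymphoid and myeloid cells (distance 0.12, group means of 26.4, 8.65 and 3.19 TPM from WT c-kit- to the labelled libraries), the choline transporter gene Slc44a1 (0.13) and the receptor phosphatase gene Ptprj (0.17). Nearest to Tfdp1 were Cntln, which encodes a centrosomal protein (0.05, group means of 10.8, 21.7 and 22.4 TPM), Pgm1 (0.07) and Cpd (0.07). Nearest to Rb1 were Ezh1, a histone methyltransferase gene (0.06, group means of 29.97, 21.1 and 19.1 TPM), Ppp2r5a (0.07) and Cdc42ep3 (0.08).

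Of the genes that E2F is known to drive at the start of DNA synthesis, a larger share rose in the labelled libraries than of all genes. All 35 on the list were tested. Against WT c-kit+, 25 rose (71.4%, beside 31.9% of all genes tested), 1 fell and 9 did not pass. The median log2 fold change was 0.38 beside 0.12 for all genes. With the neutrophil granule genes left out 17 rose (48.6%, beside 21.9% of all genes tested) and 2 fell. The median was then 0.25, beside −0.00 for all genes. The largest rises were those of the replication factor Mcm10, from a mean of 36.2 to 65.4 TPM (0.83, SE 0.09, limma adjusted p = 0.000823), the helicase subunit Mcm3 (0.77) and the DNA polymerase subunit Pole (0.71). The gene that fell was Cdc25a, a phosphatase that activates cyclin-dependent kinases, at 61.0, 48.1 and 56.4 TPM in WT c-kit+ against 39.6, 40.7 and 38.8 TPM in the labelled libraries (−0.46, SE 0.09, limma adjusted p = 0.00690). None of the 35 passed the fold threshold here.

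From WT c-kit- to WT c-kit+, 20 of the 35 E2F target genes rose (57.1%, beside 14.0% of all genes tested) and 15 did not pass, with a median of 0.32 beside −0.08 for all genes. Cdc25a rose most (1.35, SE 0.10, limma adjusted p = 0.000112), followed by the ribonucleotide reductase subunit Rrm2 (0.71) and the dUTPase gene Dut (0.69). The count was 12 without WT c-kit+ library 1 and 13 without library 3. It was 29 with quantile normalization, 28 with equal medians and 24 with the neutrophil granule genes left out. The share of all genes tested that rose was 22.95%, 22.82% and 19.02% in these last settings, in the same order. From WT c-kit- to the labelled libraries 32 rose (91.4%, beside 30.7% of all genes tested) and 3 did not pass, with a median of 0.63, led by Mcm2 (1.09), Mybl2 (1.04) and Mcm10 (1.02).

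Genes that act upstream of RB included larger differences than any of the 10 genes showed. Of 15 on the list (D and E cyclins, their kinases and the kinase inhibitors) 14 were tested, and Cdkn2b, the other one, was at 1.01 TPM at most. The E cyclin genes Ccne1 and Ccne2 are also on the E2F target list. In the labelled libraries against WT c-kit+, 10 fell, 1 rose and 3 did not pass, so that 78.6% passed beside 48.0% of all genes, with a median of −0.62 beside 0.12. The inhibitor Cdkn2c was at 95.2, 76.7 and 88.7 TPM in WT c-kit+ against 8.90, 15.3 and 6.54 TPM in the labelled libraries (−3.04, SE 0.27, limma adjusted p = 0.000308). Ccnd1, which encodes cyclin D1 and so acts in the opposite sense, fell too (−2.34, SE 0.20, limma adjusted p = 0.000307), as did the inhibitor Cdkn1c (−2.15, SE 0.26, limma adjusted p = 0.00108). The gene that rose was the kinase Cdk4, from a mean of 136 to 243 TPM (0.84, SE 0.07, limma adjusted p = 0.000235). Every tested inhibitor of RB phosphorylation fell, with Cdkn1a at −0.86, Cdkn1b at −0.85, Cdkn2a at −0.70 and Cdkn2d at −0.54 besides Cdkn1c and Cdkn2c. The drivers were mixed. Ccnd1, Ccnd2 (−1.82), Ccnd3 (−0.53) and Cdk6 (−0.33) fell, Cdk4 rose, and Ccne1, Ccne2 and Cdk2 did not pass. The counts were the same with the neutrophil granule genes left out.

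In WT c-kit+ against WT c-kit-, 5 of the upstream genes rose, 4 fell and 5 did not pass, so that 64.3% passed beside 41.6% of all genes. Their median was −0.10, and it was 0.06 with quantile normalization or equal medians and 0.01 without the neutrophil granule genes, so it has no settled sign. Cdkn1c rose most, from 0.93, 1.63 and 4.07 TPM to 57.2, 44.9 and 50.9 TPM (4.13, SE 0.34, limma adjusted p = 0.000157), with the cyclin gene Ccnd2 (0.87) and the kinase gene Cdk6 (0.85) next. The inhibitors Cdkn1a (−1.46) and Cdkn1b (−0.91) and the cyclin gene Ccnd1 (−0.86) fell most. Against WT c-kit- the labelled libraries had 8 lower, 5 higher and 1 that did not pass (92.9% passed, beside 59.4% of all genes), with Ccnd1 (−3.21), Cdkn2c (−3.06) and Cdkn1a (−2.33) falling most and Cdkn1c (1.98), Cdk4 (0.73) and Cdk6 (0.52) rising most.

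A partner list held the other pocket proteins, the second DP gene and the MuvB core, which joins E2F4 and pocket proteins in resting cells. It also held Mybl2 and Foxm1, which are none of these. Its genes passed at a share near that of all genes or below it. In the labelled libraries against WT c-kit+, 3 of 10 rose, 1 fell and 6 did not pass (40% passed, beside 48.0% of all genes), with a median of 0.01 that was −0.08 with quantile normalization. Mybl2 (0.50), the RB relative Rbl1 (0.29) and Rbbp4 (0.28) rose and Lin9 fell (−0.29), and with the neutrophil granule genes left out 1 rose and 2 fell. Mybl2 and Rbl1 are also on the E2F target list. Between the WT groups 20% passed, beside 41.6% of all genes: Mybl2 rose (0.55) and the RB relative Rbl2 fell (−0.25), against 3 that rose and 7 that did not pass with quantile normalization or equal medians. From WT c-kit- to the labelled libraries Mybl2 (1.04), Rbbp4 (0.48) and Rbl1 (0.41) rose and Rbl2 fell (−0.39), or 40% beside 59.4% of all genes.

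The E2F6 complex was read because E2f6 itself was higher in the labelled libraries. Of its 10 other subunits 3 rose against WT c-kit+ (L3mbtl2 by 0.60, Mga by 0.34 and Wdr5 by 0.31), 2 fell (Rybp at −0.57 and Max at −0.37) and 5 did not pass, with a median of 0.20. That 50% passed is close to the 48.0% of all genes. The median was 0.08 with the neutrophil granule genes left out, 0.10 with quantile normalization and 0.12 with equal medians, and each of these gave 2 that rose and 2 that fell. Between the WT groups 4 rose, led by Yaf2 (0.60), Wdr5 (0.31) and L3mbtl2 (0.23), and 6 did not pass (40% passed, beside 41.6% of all genes). Against WT c-kit-, 4 rose in the labelled libraries, led by Yaf2 (0.91), L3mbtl2 (0.83) and Wdr5 (0.62), while Rybp (−0.36) and Max (−0.30) fell, or 60% passing beside 59.4% of all genes. Of 5 germ line genes known to be silenced through E2F6, Slc25a31, Smc1b, Tuba3a and Tuba3b were at 0.73 TPM at most and were not tested. The fifth, the meiotic cohesin gene Stag3, was at 32.5, 41.2 and 30.1 TPM in WT c-kit-, at 49.5, 38.5 and 47.7 TPM in WT c-kit+, and at 111, 95.6 and 111 TPM in the labelled libraries. The labelled libraries lay above all others, in the same direction as E2f6. Stag3 rose by 1.21 on the log2 scale against WT c-kit+ (SE 0.11, limma adjusted p = 0.000372).

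**Figure D4:**
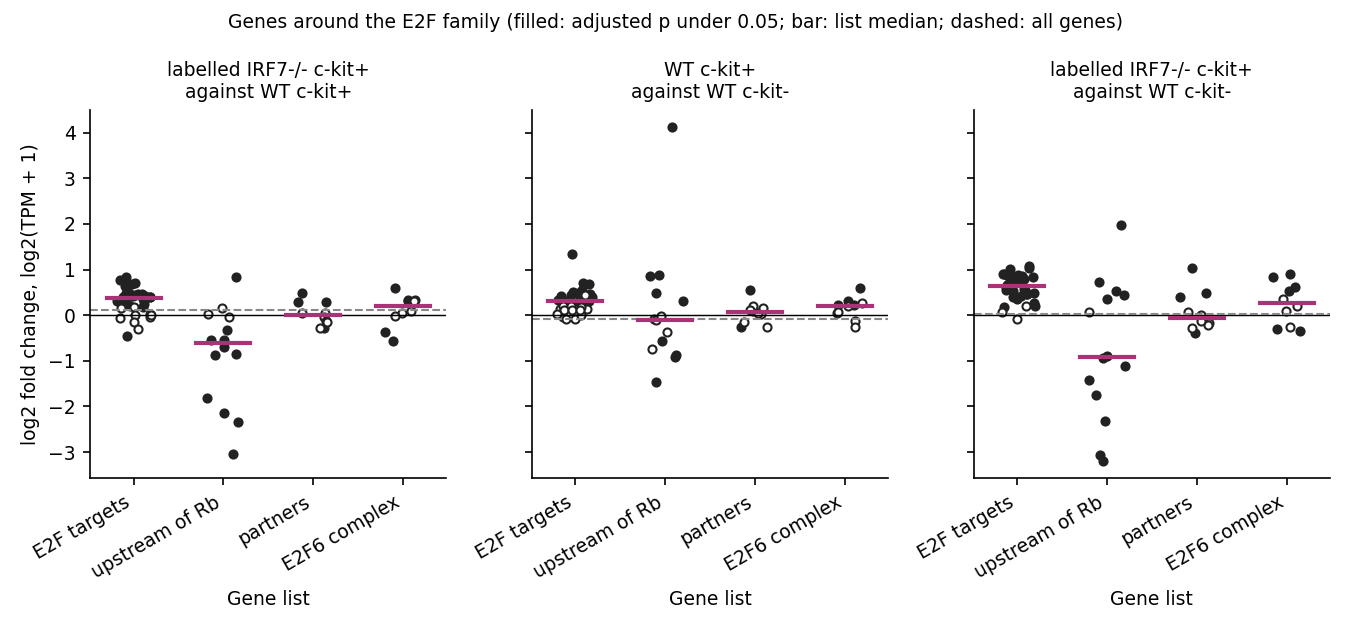
Log2 fold change of each tested gene of 4 lists on the log2(TPM + 1) scale, in 1 panel per comparison. Filled points had a limma adjusted p under 0.05, the coloured bar is the list's median and the dashed line the median of all genes. E2F target genes have medians of 0.38, 0.32 and 0.63, and genes upstream of RB have medians of −0.62, −0.10 and −0.92.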

How the data were processed

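Total RNA of sorted mouse leukemia cells was sequenced with the TruSeq RNA v2 kit, which does not mark strand. A single table holds the TPM deposited by the authors for 55536 genes. No header names the unit, which was read from the library sums of 987468 to 992231. The aligner, the counter and the build they used are not given in the sources used here, and the paper's methods speak of microarrays. The gene identifiers all match GENCODE M21 (GRCm38), which gave the coordinates. Each value column was matched to its sample by name. Libraries were grouped by their labels, and no sample was left out.

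Comparisons were run in limma 3.58.1 under R 4.3.3, with a mean-variance trend, on log2(TPM + 1) and using only the 6 libraries compared. A gene entered if 3 or more of the 6 held 1 TPM or more, which all 10 members did. Fold changes are on this scale, which understates those of low genes. P-values were adjusted by Benjamini-Hochberg over all genes tested. The stricter call also needs a log2 fold change of 1 in size, as in the study. Exact permutation tests were two-sided. The fit was tested on simulated data.

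The members and lists were chosen with earlier results of these data known. All 10 members are named. From each list the 3 largest passing rises and 3 largest passing falls per comparison are named, and for the 3 members with the widest range the 3 most similar genes. Markers, Irf7 and Kit are checks, and further list genes were named after their values were seen. Alternatives were no filter, a 5 TPM filter, quantile normalization, equal library medians, a pseudocount of 0.1, a joint fit of the 9 libraries, a replicate block and each library left out. Leaving out the 8 neutrophil maturation genes was chosen after seeing the data. Tables and plots were made in Python 3.11.15 (matplotlib 3.10.9, pandas 2.3.3).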

Additional observations from a re-analysis of the deposited data

How the results depend on the processing

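Of 417 values of single members under alternatives, 365 kept direction and side of the threshold, 38 lost a call, 11 gained one and 3 turned sign. Those 3 were E2f1 in the labelled libraries against WT c-kit+, at −0.027 with the neutrophil maturation genes left out, and E2f7 in the labelled libraries against WT c-kit-, at −0.028 without WT c-kit- library 3 and −0.022 without labelled library 2 (−0.028 to 0.12 with 1 library left out). None of the 3 had passed in the reported fit by limma. Members passing in the labelled libraries against WT c-kit+ numbered 5 and became 2 with the neutrophil maturation genes left out. The share of all genes passing was 48.0% and 43.4% in the same settings. Members passing in WT c-kit+ against WT c-kit- numbered 6, and 3 to 6 with 1 library left out. E2F targets passing there numbered 20, and 12 to 21 with 1 library left out. Members past both thresholds rose from 0 to 1 in the first comparison and from 1 to 2 in the second with a pseudocount of 0.1, quantile normalization, equal library medians or the neutrophil maturation genes left out. In the labelled libraries against WT c-kit- they rose from 1 to 2 with quantile normalization or equal library medians. With 1 library left out these counts ran from 0 to 1 and from 1 to 2. E2f2 and Tfdp1 lie at the fold threshold, which is how they cross it. A filter of 5 TPM, which tests fewer genes, took the genes past both thresholds in the first comparison from 1548 to 1015.

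With the replicate block 4, 4 and 7 members passed in the 3 comparisons, against 5, 6 and 7 without it, and 23, 18 and 32 E2F targets, against 26, 20 and 32. What the replicate number marks is not known. Of 9 correlations between same-numbered libraries 1 was over 0.1 (−0.07 to 0.24), and only the lowest was negative. Those between libraries of different number ran from −0.18 to 0.14 and were mostly negative. Not every library correlated best with its own number, and such weak correlations cannot settle whether libraries were paired. TPM keep no depth, so how far counting error limits E2f5, at 0.97 to 2.54 TPM, is unknown.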
